A study of Mus musculus with 3 samples.

Results

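Chemokines and interleukins are the secreted proteins by which leukocytes are called into a tissue and told what to do there, and the genes described here encode these ligands and their receptors in mouse lung. They were taken by name: every row of the deposited table whose RefSeq identifier belongs to a mouse gene called Ccl, Ccr, Cxcl or Cxcr with a number, or Il with a number. That gave 152 of the 16383 rows, which stand for 94 of 10761 named genes. The RefSeq gene table holds 137 protein-coding genes with such names, and the other 43, among them Il6, Il4, Cxcl10, Cxcl14 and Cxcl16, have no row and were not analysed here. Of the 152 rows, 25 were numbered copies of an identifier for 6 of the genes (the Ccl21 and Ccl27b copies among them), and all 25 were listed at 0.

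The libraries were made from whole lung of mice of C57BL/6J/mixed background, with 1 from a wild type (WT) and 2 from mice labelled as knockouts of both Lin28a and Lin28b (DKO 1 and DKO 2, names that follow the labels). Lin28a and Lin28b encode RNA-binding proteins of early development. Exon 2 of each gene lies between loxP sites, and a tamoxifen-activated Cre expressed from Nkx2-1, a gene of lung epithelium, removes it, so cells that do not express Nkx2-1 would keep both genes. The labels describe tamoxifen for every library in the same words and give no age and no sex, and they do not say if the DKO pair stands for separate mice; the spread between them may thus be technical.

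Chemokine ligands bind receptors that couple to inhibitory G proteins, and cells that carry the receptor move up the gradient. CC ligands such as Ccl2 draw mainly monocytes and other mononuclear cells, whereas CXC ligands with a glutamate-leucine-arginine motif, such as Cxcl1 and Cxcl2, draw neutrophils through Cxcr2. Interleukins act through paired receptor chains, most of which signal through JAK kinases and STAT factors, while the Il1 and Il18 branch signals through Myd88 and NF-kappaB. In the lung these genes are known from infection and injury, and a few ligands are made by epithelium and resident macrophages without either.

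Promoters are shown for members on which the results turn, as far as the RefSeq promoter table (GRCm38.p6) held them: Ccl12, the most abundant ligand in WT; Ccl6, above WT in both DKO libraries; Cxcr2, the most abundant receptor; and Cxcl2, whose promoter was the one among expressed members with a match to the NF-kappaB motif. The table had 9 of the 14 expressed members, and Ccl2, Ccl4, Ccl7, Ccl11 and Il10rb were not in it. Each line gives the 250 bases before the RefSeq transcription start, which can differ from the GENCODE gene start given further on, 5′ to 3′ on the gene's strand, with matches in capitals.
Ccl12, chr11:82101595-82101844, plus strand: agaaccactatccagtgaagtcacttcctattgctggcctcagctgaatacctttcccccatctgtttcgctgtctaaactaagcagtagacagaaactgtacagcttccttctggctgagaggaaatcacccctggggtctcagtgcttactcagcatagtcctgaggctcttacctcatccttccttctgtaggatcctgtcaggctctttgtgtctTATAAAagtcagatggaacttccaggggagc
Ccl6, chr11:83593088-83593337, minus strand: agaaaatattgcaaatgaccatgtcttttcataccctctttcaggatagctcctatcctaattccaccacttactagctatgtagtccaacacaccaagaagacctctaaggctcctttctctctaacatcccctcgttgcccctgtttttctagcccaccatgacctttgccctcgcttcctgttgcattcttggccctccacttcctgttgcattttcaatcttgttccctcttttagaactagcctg
Cxcr2, chr1:74153744-74153993, plus strand: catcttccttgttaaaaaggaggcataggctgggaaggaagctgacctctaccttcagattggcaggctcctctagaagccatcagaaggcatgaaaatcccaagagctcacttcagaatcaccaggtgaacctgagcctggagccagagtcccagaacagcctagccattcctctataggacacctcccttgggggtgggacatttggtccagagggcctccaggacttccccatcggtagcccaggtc
Cxcl2, chr5:90903649-90903898, plus strand: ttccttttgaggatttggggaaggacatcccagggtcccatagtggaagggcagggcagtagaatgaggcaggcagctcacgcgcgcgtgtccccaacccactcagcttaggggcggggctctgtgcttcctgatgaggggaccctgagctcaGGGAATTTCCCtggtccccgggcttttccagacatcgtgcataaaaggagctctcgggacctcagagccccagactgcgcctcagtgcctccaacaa

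The motifs searched, on both strands, were GGGA and TTCC with any 2 bases between them for NF-kappaB, TTCNNNGAA for STAT factors, TGANTCA for AP-1 and TATAAA for the TATA box. In the Cxcl2 promoter the capitals mark 2 overlapping NF-kappaB matches that start 97 and 96 bases before the transcription start. Among 32841 promoters of this length, 1.21% held such a match, as did 5 of 95 member promoters (5.26%). The capitals in the Ccl12 promoter mark a TATA box that starts 31 bases before the transcription start; TATAAA was found in 12.4% of all promoters and in 17.9% of member promoters. The AP-1 motif was found in 6.75% of all and 14.7% of member promoters, and the STAT motif in 7.02% and 9.47%, with neither present in those of the 9 expressed members. No searched motif was found in the Ccl6 and Cxcr2 windows. Several member genes have more than 1 promoter in the table, and a match describes letters in the window and nothing more.

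Of the 94 genes, 14 had at least 1 RPKM in at least 1 library and are called expressed here. Where 3 values are listed for a gene, their order is WT, DKO 1, DKO 2. RPKM is the number of reads scaled by transcript length and library depth, which is meant to make levels comparable between genes. Of all genes 22.7% reached this level, against 14.9% of the members. A further 32 members had a value above 0 that stayed under 1 RPKM, and 48 were listed at 0 in every row and library. A listed 0 or a low value can be a failed estimate, since Gapdh, used by nearly every cell, measured 0.0144, 0.115 and 0.185 RPKM. Rankings of genes by level therefore hold for the listed values only. By role, 7 of 21 CC ligands, 2 of 6 CXC ligands, 1 of 4 CXC receptors, 1 of 19 interleukin ligands and 3 of 26 interleukin receptor chains were expressed. None of the 11 CC receptors and none of the 5 antagonists or decoys reached 1 RPKM. Nearest to the threshold were Ccl9 just below it, at most 0.929 RPKM, and Cxcl2 and Il6st just above, at most 1.03 and 1.20 RPKM.

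**Figure D1:**
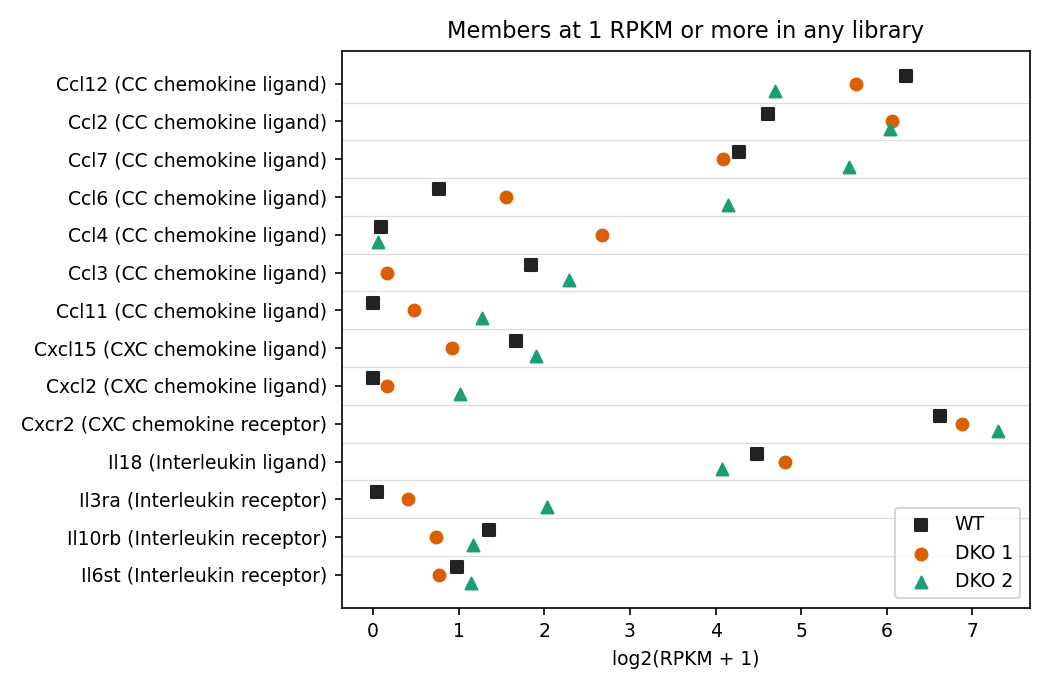
Level of each of the 14 expressed members in each library, on a log2(RPKM + 1) axis, grouped by role; squares are WT, circles DKO 1 and triangles DKO 2. Cxcr2, Ccl12 and Ccl2 are the highest rows, and Il18 lies above Ccl7 in WT and DKO 1 but below it in DKO 2.

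For the comparison of DKO with WT, 11 of the 14 averaged 1 RPKM or more and were tested; Ccl11, Cxcl2 and Il6st fell short. In limma, run on log2(RPKM + 1) across 2066 transcripts, 0 of the 11 passed at a Benjamini-Hochberg adjusted p under 0.05, where 0.0968% of all tested transcripts did. The limma adjusted p was 0.999 for each of the 11. At an unadjusted p under 0.05 there was 1 member, Ccl6, and 66 of all tested transcripts. The single WT library leaves 1 residual degree of freedom, from the DKO pair. To this limma adds 11.2 prior degrees of freedom, drawn from the spread of all tested transcripts. The SE of each gene given below thus rests mainly on other transcripts and not on its own spread. A rule of size was therefore counted too. It asked that each DKO library differ from WT by 2-fold or more, one way, in log2(RPKM + 1), and that the gap between the DKO pair be smaller than either difference. In the upward direction 1 of 11 members, Ccl2, met it, beside 3.19% of all tested transcripts. In the downward direction 0 of 11 did, beside 1.5%. Lying above WT in both DKO libraries, by any amount, held for 4 of 11 (Ccl2, Ccl6, Cxcr2 and Il3ra) and for 32.1% of all tested transcripts; lying below in both held for 2 of 11 (Ccl12 and Il10rb) and for 31%. The median log2 difference was 0.47 over the 11 members and −0.01 over all tested transcripts. The filter averages 1 WT and 2 DKO values. Ccl4, Ccl6 and Il3ra were under 1 RPKM in WT and passed it only through DKO values. On the log2(RPKM + 1) scale a gene under 1 RPKM in WT cannot fall 2-fold, so Ccl4, Ccl6 and Il3ra could not meet the downward rule. Il17ra, Cxcl1 and Il4ra lay below WT in both DKO libraries but averaged under 1 RPKM and were not tested. The member median, the members above or below WT in both and the 0 of 11 lower thus cannot be read apart from the filter and the scale.

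**Figure D2:**
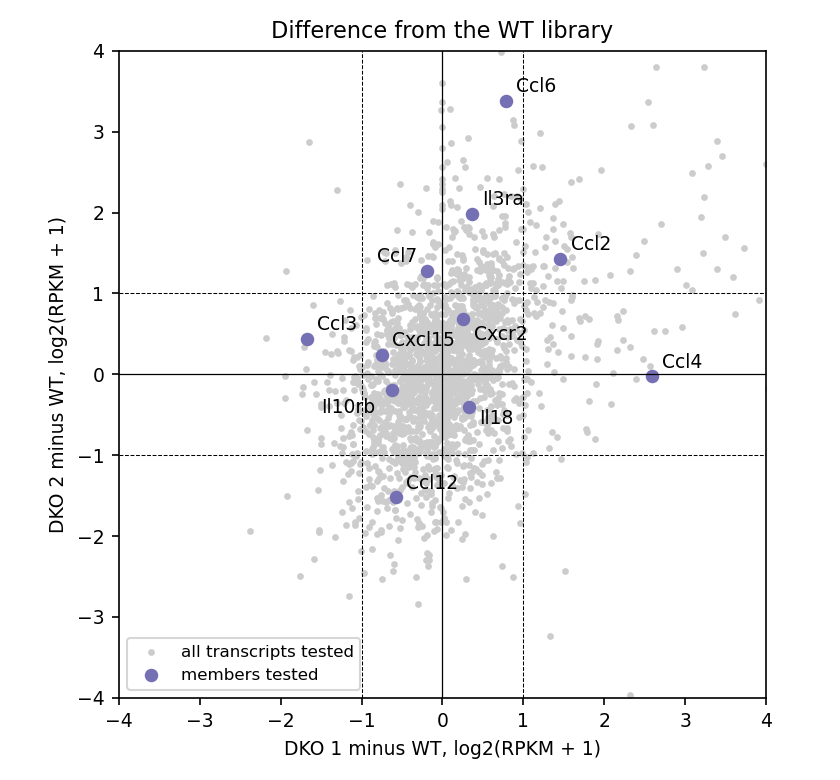
Difference of DKO 1 from WT (x) and of DKO 2 from WT (y) in log2(RPKM + 1), for all 2066 tested transcripts (grey) and the 11 tested members (purple, named); dashed lines mark 2-fold, and 10 transcripts lie outside the plotted range. Both axes share the WT library; Ccl2 is the member beyond the dashed lines on both, while Ccl3, Ccl4, Ccl6, Ccl7, Il3ra and Ccl12 pass a dashed line on 1 axis.

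Library-wide features bear on all of these values. Lin28b, a deleted gene, measured 0.449, 0.187 and 0.590 RPKM, so the library labelled DKO 2 did not have less of its transcript than WT; RPKM covers the whole transcript and all lung cells, and Lin28a was not analysed here. The Y-linked genes Ddx3y, Eif2s3y, Kdm5d and Uty were listed at 0 in WT and above 0 in both DKO libraries, so that sex and genotype cannot be told apart. Lung epithelial markers summed to 403, 25.8 and 35.1 RPKM, of which Sftpc alone was 369, 7.55 and 0.0364. Of the 4 tested epithelial markers, 2 lay below WT in both DKO libraries: Sftpc and Epcam, the latter at 17.4, 6.75 and 10.6 RPKM. Krt19 lay above WT in both, at 3.08, 6.17 and 9.11 RPKM, and Krt18 measured 12.2, 4.10 and 14.7. None of these other genes shared the order of Sftpc. Endothelial markers summed to 3.09, 3.48 and 3.13 RPKM and mesenchymal ones to 38, 52.7 and 37.2, and Nkx2-1 itself was listed at 0. Depth, inferred from the step between low values, came to about 48697000, 30679000 and 34196000 reads. From these, approximate reads and 95% exact binomial intervals of each ratio to WT were computed; they cover counting error only. In whole tissue, fewer cells of a type and less RNA per cell cannot be told apart.

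The most abundant chemokine ligands were Ccl2, Ccl7 and Ccl12, neighbours on chromosome 11 that encode monocyte chemoattractants, all known to act on Ccr2. Together they made up 96.3% of the RPKM of the CC ligands in WT, 93.4% in DKO 1 and 85.5% in DKO 2. Their sum differed little, at 115, 131 and 136 RPKM, whereas its make-up differed between WT and both DKO libraries. Ccl12 made up 63.7% of it in WT, 37.4% in DKO 1 and 18.4% in DKO 2. Ccl2 made up 20.3% in WT and 50.4% and 47.7% in the DKO libraries. Ccl7 made up 15.9% in WT, 12.2% in DKO 1 and 33.9% in DKO 2. Only the Ccl2 share was thus close between the DKO libraries. Ccl12 was thus first of the 3 in WT, and Ccl2 first in both DKO libraries.

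**Figure D3:**
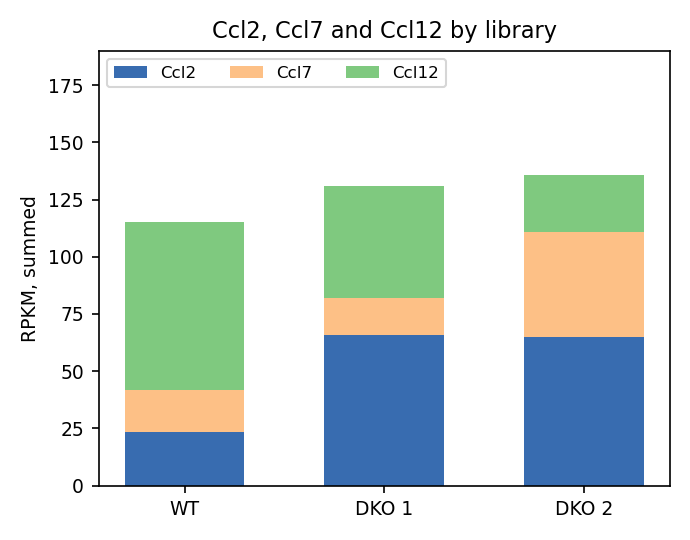
Summed RPKM of Ccl2 (blue), Ccl7 (orange) and Ccl12 (green) in each library, 1 bar per library from 0. The bars are of similar height, 115 to 136 RPKM, and the Ccl12 part is largest in WT while the Ccl2 part is largest in DKO 1 and DKO 2.

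Ccl2 (NM_011333, chromosome 11, 82035571 to 82037453, GRCm38), the main monocyte attractant, measured 23.4, 66.0 and 64.9 RPKM. Both DKO values lay above WT and were close to each other. The ratio to WT was 2.82 in DKO 1 (95% counting interval 2.60 to 3.05, 1646 against 928 reads) and 2.77 in DKO 2 (2.55 to 3.0, 1803 reads). On the log2 scale Ccl2 was 1.44 above WT (SE 0.78, limma adjusted p = 0.999), which did not pass. The predicted gene Gm17268 lies over Ccl2 on the opposite strand, and whether reads were counted by strand is not given in the sources used here.

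Ccl12 (NM_011331, chromosome 11, 82101845 to 82103400), a mouse monocyte chemoattractant, went the other way, at 73.5, 48.9 and 25.0 RPKM. Its ratios to WT were 0.665 (0.612 to 0.723, 806 against 1922 reads) and 0.340 (0.306 to 0.377, 459 reads). WT was thus highest, and on the log2 scale the DKO libraries differed from each other by more than DKO 1 differed from WT. The log2 difference was −1.05 (SE 0.81, limma adjusted p = 0.999). Ccl7 (NM_013654, chromosome 11, 82045712 to 82047525), which also attracts monocytes, measured 18.4, 16.0 and 46.1 RPKM. DKO 1 lay close to WT and DKO 2 alone stood above, at 2.51-fold (2.29 to 2.75). Ccl11, eotaxin, which lies between Ccl7 and Ccl12 and draws eosinophils through Ccr3, measured 0.395 RPKM in DKO 1 and 1.42 in DKO 2, with a listed 0 in WT, or about 13 and 52 reads. Ccl1, at the end of this row of genes, was listed at 0 throughout, and Ccl8 was not analysed here.

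The other CC ligands came from a neighbouring cluster on chromosome 11 that holds Ccl5, Ccl9, Ccl6, Ccl3 and Ccl4 in this order. Ccl6 (NM_009139, chromosome 11, 83587882 to 83593087), a chemokine made by macrophages and neutrophil-lineage cells, measured 0.701, 1.93 and 16.7 RPKM. Both DKO values were above WT, but DKO 2 was far above DKO 1. Relative to WT this was 2.75-fold in DKO 1 (1.92 to 4.0, 85 against 49 reads) and 23.9-fold in DKO 2 (17.9 to 32.6, 824 reads). The log2 difference of 2.08 (SE 0.91) had a limma adjusted p of 0.999. A non-coding transcript, E230016K23Rik, lies over Ccl6 on the opposite strand.

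Ccl3 and Ccl4, the macrophage inflammatory proteins, which lie next to each other, did not move together. Ccl3 measured 2.60, 0.124 and 3.89 RPKM, so DKO 1 stood apart with about 3 reads against 97 in WT. Ccl4 measured 0.0622, 5.38 and 0.0443 RPKM, and again DKO 1 stood apart, this time above the others, with about 109 reads against 2 in WT. For both genes DKO 2 was the nearer to WT. Ccl9, next to Ccl6, had 0.929, 0.423 and 0.748 RPKM, and Ccl5, a ligand of T cells, was listed at 0.

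**Figure D4:**
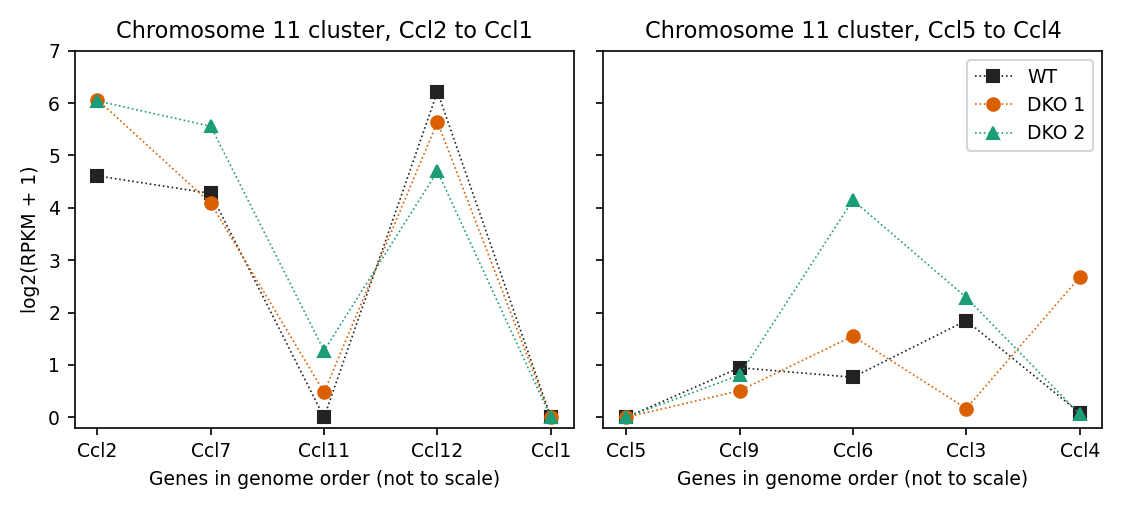
Level in log2(RPKM + 1) of the CC ligand genes of 2 chromosome 11 clusters, in genome order and not to scale; squares are WT, circles DKO 1, triangles DKO 2, and dotted lines only join the values of 1 library. In the left panel Ccl2 is higher and Ccl12 lower in both DKO libraries than in WT, and in the right panel Ccl6 stands out in DKO 2 and Ccl4 in DKO 1.

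Of the remaining CC ligands, Ccl17 had 0.444 RPKM in DKO 1 and was listed at 0 in the others, and Ccl27a measured 0.116, 0.407 and 0.166 RPKM for its highest transcript. Ccl22 and Ccl25 had values above 0 in 1 library each, under 0.1 RPKM. Ccl19, Ccl20, Ccl21a, Ccl21b, Ccl21d, Ccl26 and Ccl27b were listed at 0. The Ccl21 and Ccl27 genes have near-identical copies, between which reads cannot be placed with certainty.

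Among CXC ligands, Cxcl15, known as lungkine and made by lung epithelium, measured 2.17, 0.889 and 2.75 RPKM. WT lay between the DKO libraries, and the log2 difference was −0.25 (SE 0.75, limma adjusted p = 0.999). Sftpc, the surfactant gene of distal epithelium, had 369, 7.55 and 0.0364 RPKM in the same libraries, so Cxcl15 was not lowest where Sftpc was lowest. Krt18, at 12.2, 4.10 and 14.7 RPKM, had the order of Cxcl15, and Epcam, at 17.4, 6.75 and 10.6, was also lowest in DKO 1. Krt19 was lowest in WT and Cdh1 in DKO 2. The part of epithelial cells in the Cxcl15 values was not tested. Of the ligands of Cxcr2, Cxcl1, Cxcl2 and Cxcl5 were at low levels or listed at 0, and any without a row were not analysed here. Cxcl2, at a listed 0 in WT, measured 0.120 and 1.03 RPKM in the DKO pair (about 4 and 39 reads), while Cxcl1 had 0.563 RPKM in WT and was listed at 0 in both DKO libraries. Their order between WT and DKO was thus opposite. Cxcl5 was listed at 0, Cxcl9 had at most 0.0848 RPKM, and Cxcl12, a ligand of stroma that binds Cxcr4, at most 0.0287.

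Cxcr2 (NM_009909, chromosome 1, 74153989 to 74161246), the neutrophil receptor for Cxcl1, Cxcl2 and Cxcl5, was the most abundant member of all. It measured 97.6, 117 and 157 RPKM, from about 14480, 10909 and 16361 reads. Both DKO values were above WT, at 1.20-fold (1.17 to 1.23) and 1.61-fold (1.57 to 1.65), and the log2 difference was 0.47 (SE 0.80, limma adjusted p = 0.999). The 11 neutrophil markers in the table summed to 3.20, 79.8 and 131 RPKM, most of which was S100a8 at 3.04, 72.2 and 108. Camp, at 0, 4.84 and 9.32 RPKM, had the same order, but the others did not: Prtn3 was highest in DKO 1 (2.72 RPKM), and Lcn2 and Ctsg were above 0 in DKO 2 alone. In WT, Cxcr2 was thus far above the whole neutrophil list, of which S100a9, Ngp, Elane and Csf3r were listed at 0 in every library. No annotated gene overlaps Cxcr2, and what its reads came from was not tested.

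The other chemokine receptors were low. Cxcr4, the receptor of Cxcl12 on leukocytes and endothelium, measured 0.555, 0.521 and 0.0483 RPKM, and was thus low in DKO 2 alone. Ccr1, which binds Ccl3, measured 0.486, 0 and 0.702 RPKM. Ccr4, Ccr10 and Cxcr5 had at most 0.125 RPKM. Ccr2, through which Ccl2, Ccl7 and Ccl12 act, was listed at 0 in every library, as were Ccr3, Ccr6, Ccr7, Ccr8, Ccr9, Ccr1l1 and Cxcr3. The abundant monocyte ligands thus had no reads listed for their receptor, which these data do not tell apart from a failed estimate.

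Il18 (NM_008360, chromosome 9, 50554827 to 50581840), an Il1-family cytokine that epithelium and macrophages store as a precursor, was the only interleukin ligand to reach 1 RPKM. It measured 21.4, 27.1 and 15.9 RPKM, so that WT lay between the DKO libraries. The log2 difference was −0.04 (SE 0.76, limma adjusted p = 0.999). The genes Bco2 and Tex12 overlap it on the opposite strand. Of its receptor chains, Il18r1 was listed at 0 and Il18rap had 0.0420 RPKM in WT alone; its soluble inhibitor Il18bp had 0.140 RPKM in DKO 1 alone. Casp1, the protease that matures Il18, measured 1.10 RPKM in DKO 1 and 0.560 in DKO 2, with a listed 0 in WT.

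Of the other interleukins, Il16, a T cell attractant, measured 0.161, 0.157 and 0.0938 RPKM, and the anti-inflammatory Il10 had 0.173, 0.0499 and 0. Il19 had 0.0201 RPKM in WT alone. The remaining 15 were listed at 0: Il1a, Il1b, Il2, Il3, Il5, Il7, Il9, Il11, Il12a, Il13, Il15, Il17a, Il21, Il33 and Il34. Of all member genes with 1 curated RefSeq transcript, 46.4% were listed at 0, and of those with 2 or more, 57.9%; the shares over all genes were 42.3% and 63.7%.

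Among receptor chains, Il3ra (NM_008369, chromosome 14, 14346275 to 14356011), which binds Il3 on myeloid progenitors, basophils and plasmacytoid dendritic cells, measured 0.0295, 0.327 and 3.08 RPKM. Both DKO values were above WT, with about 2, 16 and 170 reads, and DKO 2 was far above DKO 1. The log2 difference was 1.18 (SE 0.96, limma adjusted p = 0.999). Its ligand Il3 was listed at 0. An antisense gene, Gm48860, overlaps Il3ra on the opposite strand. Il10rb, the chain shared by receptors of the Il10 family, had 1.57, 0.670 and 1.25 RPKM and lay below WT in both DKO libraries (log2 difference −0.40, SE 0.80, limma adjusted p = 0.999). A predicted gene, Gm21970, overlaps it on the same strand, so their reads may be shared. Il6st, the gp130 chain through which Il6, Il11 and Lif signal, had 0.976, 0.700 and 1.20 RPKM, with WT between the DKO libraries.

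Among low receptor chains, Il17ra, which binds Il17a on epithelium and stroma, measured 0.579, 0.0657 and 0 RPKM, or about 219, 16 and 0 reads. Il4ra, the chain shared by the Il4 and Il13 receptors, had 0.294, 0.102 and 0.0976 RPKM, or about 75, 17 and 18 reads, so the DKO libraries were close to each other. Il1rap, the shared chain of Il1-family receptors, had 0.278, 0.442 and 0.147 RPKM, and 9 other low chains, Il1rapl1, Il1rl1, Il2ra, Il2rg, Il5ra, Il6ra, Il10ra, Il12rb2 and Il18rap, stayed under 0.3 RPKM. Il1r1, Il7r, Il2rb, Il9r, Il11ra1, Il11ra2, Il12rb1, Il15ra, Il17re, Il18r1 and Il20rb were listed at 0. Of the antagonists and decoys, Il1r2, the decoy receptor of Il1, had 0, 0.0243 and 0.152 RPKM, Il13ra2 had 0.0212 RPKM in DKO 1 alone, and Il1rn and Il1f5 were listed at 0, as were Il4i1 and Il4i1b, enzymes named for their induction by Il4.

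By counting error alone, the interval of the ratio to WT lay above 1 in both DKO libraries for 7 of 47 member rows with reads and below 1 in both for 7 of 47. The same held for 15.6% and 18.2% of 5175 rows over all genes, so neither share of the members was far from the table's. The 7 above were Ccl2, Ccl6, Ccl11, Cxcl2, Cxcr2, Il3ra and Il6ra, and those below included Ccl12, Cxcl1, Cxcl9, Il4ra, Il17ra and Il18rap. Some rest on few reads: about 0, 5 and 8 for Il6ra, 0, 4 and 39 for Cxcl2, 12, 0 and 1 for Cxcl9, and 10, 0 and 0 for Il18rap. Ccl11, Cxcl2 and Il6ra were at a listed 0 in WT. This count was added after the data were seen and leaves out the spread between animals.

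The leukocytes that make and answer these signals were followed by marker lists. The 8 pan-leukocyte genes summed to 40.2, 72.0 and 115 RPKM, with Ptprc listed at 0. The 14 macrophage and monocyte genes summed to 84.2, 362 and 98.2 RPKM, with DKO 1 highest and Cd68, Ly6c2, Marco and Itgam listed at 0. The 11 T, NK and innate lymphoid genes summed to at most 0.734 RPKM, with Cd3e, Cd4 and Cd8a at 0, and the 6 B cell genes to at most 0.844. Mast cell, basophil and eosinophil genes summed to 3.12, 4.58 and 0 RPKM, and the 4 dendritic genes to at most 0.379. These sums rest on a few genes, and the genes of a list do not agree in order. Of the pan-leukocyte genes Cd52 measured 2.82, 39.1 and 27.1 RPKM and Arhgdib 34.1, 27.9 and 78.9. Of the macrophage genes Tyrobp gave 219 of the 362 RPKM in DKO 1. Among the 7 tested macrophage genes 4 lay above WT in both DKO libraries and 1 below, Fcgr3, at 4.39, 2.17 and 0.389 RPKM. Ccl6, Ccl11, Cxcl2, Cxcr2 and Il3ra were lowest in WT and highest in DKO 2, as were S100a8 and Camp. Krt19, Nfkbia, Cish and Cx3cl1, from other lists, also had this order, and the neutrophil marker Prtn3 did not. The share of all transcripts with this order was not counted, and the part of leukocytes in the members' values was not tested.

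**Figure D5:**
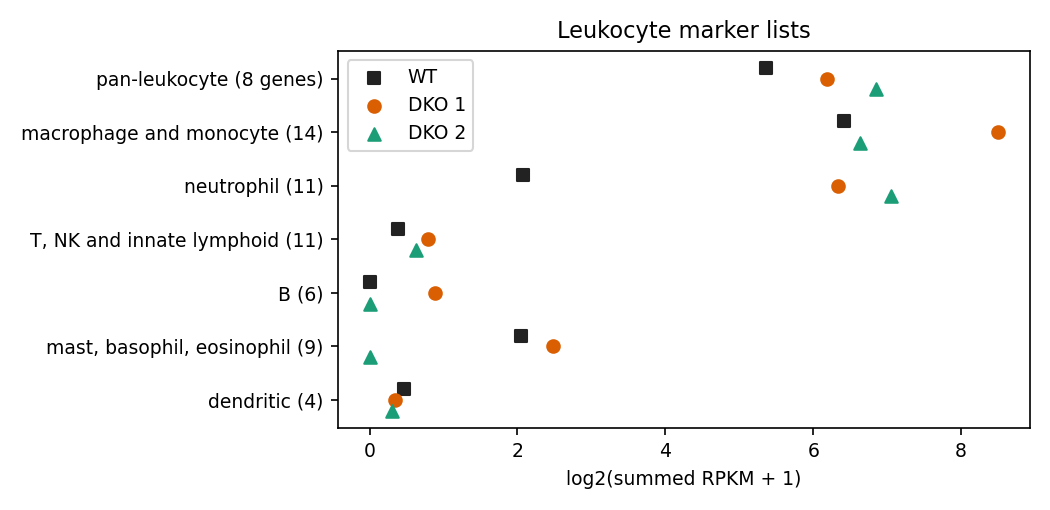
Summed RPKM of 7 leukocyte marker lists in each library, on a log2(sum + 1) axis, with the number of genes in the table in brackets; squares are WT, circles DKO 1, triangles DKO 2. The neutrophil and pan-leukocyte sums are lowest in WT and highest in DKO 2, the macrophage sum is highest in DKO 1, and lymphoid sums stay under 1 RPKM; most of the neutrophil sum is S100a8.

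The genes through which these receptors signal were taken from 5 lists of 90 genes, of which 67 had a row, 29 were listed at 0, 13 reached 1 RPKM and 8 were tested. None of the 8 passed limma in either direction, 2 lay above WT in both DKO libraries and 5 below, and their median log2 difference was −0.24 against −0.01 over all tested transcripts. In the list of G protein signalling behind chemokine receptors, the 4 tested genes lay below WT in both, as did 31% of all tested transcripts, each by a difference that did not pass (limma adjusted p = 0.999) and that for Gnai2 was −0.28 and −0.08 on the log2 scale. Gnai1 measured 4.05, 2.70 and 1.41 RPKM, Gnai3 had 15.7, 14.6 and 7.16, Rgs2 had 13.7, 11.5 and 10.2, and Gnai2 had 22.8, 18.5 and 21.5. The Gnai genes encode inhibitory G protein subunits, and Rgs2 a regulator that shortens G protein signals.

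In the NF-kappaB list, Nfkbia, the inhibitor that NF-kappaB itself induces, had 5.96, 6.90 and 16.1 RPKM, and Rela, a subunit of NF-kappaB, had 3.47, 2.41 and 1.55. Nfkbib, a related inhibitor, measured 1.0, 1.12 and 0.691. In the JAK and STAT list, Cish, a feedback inhibitor, had 0.0475, 0.905 and 1.91 RPKM, and Stat6, which acts behind Il4ra, had 0.988, 1.33 and 0.791. Of other cytokine genes, Lifr, a partner of Il6st, had 3.86, 4.54 and 4.40 RPKM, and Ebi3, a subunit of Il27 and Il35, had 2.07 and 0.501 RPKM and was listed at 0 in DKO 2. Outside the named families, the chemokine Cx3cl1 had 0.0457, 0.239 and 1.74 RPKM.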

How the data were processed

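Per the labels, total RNA of whole mouse lung was extracted with Trizol and made into libraries with Clontech's SMARTer low-input chemistry. The authors deposited RPKM values for RefSeq transcripts, 1 column per library. Per the submitters' processing notes, cutadapt, TopHat2, HTSeq and edgeR were used with build mm10; the sources used here do not give versions, order, annotation or strand setting. Rows were named with the RefSeq gene table (GRCm38.p6) and GENCODE M21 on the same assembly, which left 155 unnamed; positions are GENCODE's.

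A pseudocount of 1 RPKM was added before taking log2, and 2066 transcripts averaging 1 RPKM or more were tested with limma 3.58.1 in R 4.3.3 (trended moderation, two-sided, Benjamini-Hochberg over all tested). Fold changes on this scale understate those of low genes. The worth of 1 read was the commonest low product of RPKM and length, sought between 0.01 and 0.06 and refined; of values of 1 to 100 reads, 46.5%, 46.3% and 44.8% in WT, DKO 1 and DKO 2 lay within 0.05 of a whole read, so reads are approximate and some come from a GENCODE length that may differ from the authors'. The fit was tested on simulated data with large planted changes and the same spread for every transcript. That setting differs from these data, so it does not show what the fit could find among the members. Every member of 1 RPKM or more is named with its values, low members by role with values from 0.3 RPKM, and of each pathway list up to 4 genes of 1 RPKM or more with the largest smaller difference; values under 0.3 RPKM were added after they were seen, as were the counting intervals. The values of 1 member are not reported here. The members, lists and rules were chosen with earlier results of these data known.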

Additional observations from a re-analysis of the deposited data

How the results depend on the processing

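The count of 0 members passing limma was the same under all 8 alternatives run (pseudocounts of 0.1 and 5 RPKM, no filter on low values, a filter at a mean of 5 RPKM, median scaling, quantile normalization, and moderation without a trend or robust), with a lowest limma adjusted p of 0.269. With 1 DKO library left out no residual degrees of freedom remain, so limma could not be run. All 64 member differences kept their direction under the pseudocounts, filters and scalings. A filter leaves the difference of a gene unchanged, so only the pseudocounts and scalings could have turned a direction. A pseudocount keeps the order of the libraries. It thus could not turn Ccl2, Ccl6, Cxcr2, Il3ra, Ccl12 or Il10rb, whose DKO values both lay on the same side of WT. For these only the scalings could have done so. Median scaling moved the median of all transcripts by −0.05 in DKO 1 and −0.10 in DKO 2. Ccl2 met the 2-fold rule under every alternative. The filters could not alter its difference. A 1.5-fold rule, a rule without the condition on the DKO gap and the rules with a single DKO library are looser, so Ccl2 had to meet them. A pseudocount of 0.1 RPKM could only widen its differences from WT. Only the pseudocount of 5 RPKM and the scalings could have made them smaller. With a single DKO library the count of members 2-fold higher was 4 without DKO 1 (Ccl2, Ccl6, Ccl7, Il3ra) and 2 without DKO 2 (Ccl2, Ccl4), and the count 2-fold lower was 1 in either case (Ccl12 without DKO 1, Ccl3 without DKO 2). The direction turned in 6 members: without DKO 1 and without DKO 2 the log2 differences were 0.44 and −1.68 for Ccl3, −0.025 and 2.59 for Ccl4, 1.28 and −0.19 for Ccl7, 0.24 and −0.75 for Cxcl15, −0.41 and 0.33 for Il18, and 0.16 and −0.22 for Il6st. At 5 RPKM or more, 7 members were expressed. Members with fewer than about 20 reads carry wide counting intervals.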
